A study of Bos indicus with 8 samples.

Results

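A group of 38 genes that act in the cell division cycle, in DNA replication and in the supply of DNA precursors was followed in blastocysts of Bos indicus after cryopreservation. The genes were listed by name, with earlier results of these data known. Shares of members set against all named genes are therefore descriptions and not tests. Every probe whose symbol in the array's annotation matched one of the genes was taken. This gave 60 of the 43794 gene probes of the bovine EMBV3 oligonucleotide array. Of these, 58 probes, covering 37 of the 38 genes, were above background often enough to be tested. The group held 12 replication genes, 5 nucleotide supply genes, 12 cyclin and cyclin-dependent kinase genes and 9 genes of mitosis.

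Vitrified pools held 10 grade I blastocysts produced in vitro and graded between 144 and 156 h after insemination. They had been cooled in liquid nitrogen on a Cryotop, a film strip that carries embryos in a minimal volume, out of a solution with 15% ethylene glycol, 15% dimethylsulfoxide and 0.5 M sucrose. After warming through sucrose solutions they were returned to culture for 4 h. Control pools held 10 blastocysts of the same grade and origin that stayed in warm holding medium on the bench meanwhile and then had the same 4 h of culture. Both groups came from slaughterhouse ovaries and frozen semen of a Bos indicus sire, and in both only embryos that looked normal at the end were kept. A vitrified pool therefore describes embryos that had re-expanded, averaged over 10 individuals. RNA from the pools was amplified in 2 rounds before labelling.

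Each of 8 arrays carried a vitrified and a control pool in opposite dyes. Arrays on neighbouring areas of a slide formed a dye swap, which gave 4 pairs. Pairs 1 and 2 lay on slide 1 (areas 1 and 2, then areas 3 and 4), and pairs 3 and 4 lay in the same positions on slide 2. Values below are log2 ratios of vitrified over control, averaged within a pair, so that a ratio of 0 is no difference, or normalised log2 intensities of a pool. A gene with several probes is represented by its brightest tested probe unless other probes are named. Probe intensities served to choose probes and to describe brightness, not to compare transcript amounts between genes. All means are given ± SD over the 4 pairs (n = 4), and intervals are 95% confidence intervals from limma. Differences are between whole embryos, in which fewer cells of a type and less RNA per cell cannot be told apart.

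A cell copies its DNA once per cycle. The MCM2 to MCM7 helicase is loaded on replication origins by CDC6 and CDT1, and geminin (GMNN) blocks CDT1 so that origins are not loaded again. Ribonucleotide reductase (RRM1 with RRM2), thymidylate synthase (TYMS) and the salvage kinases TK1 and DCK supply the deoxynucleotides, cyclins and their kinases order the phases, and Aurora kinases and spindle checkpoint proteins govern chromosome separation. The blastocyst is a rapidly dividing embryo with an outer trophectoderm and an inner cell mass, and many transcripts of the cycle are abundant in it.

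Over the whole array, median spot intensities were 106 to 153 in Cy5 and 149 to 243 in Cy3, and 67.7% to 81.2% of gene probes were above background in a channel. The number of dye-swap pairs, not of arrays or spots, limits the precision. Of 35206 tested probes, 0 had an adjusted p under 0.05 in limma, the smallest was 0.443, and 2690 probes (7.64%) had an unadjusted p under 0.05. The smallest p that an exact two-sided sign-flip test over 4 pairs can give is 0.125. Markers of both blastocyst lineages were measured: 9 of 10 trophectoderm genes and 4 of 5 tested inner cell mass genes were above background in both channels of all 8 arrays. The labels call the pools biological replicates without naming their cultures, so the p-values measure only the spread between these pools.

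No member gene passed the test, and the ratios leaned below 0. Among the 37 tested genes 0 had an adjusted p under 0.05, as did 0 of 13202 named genes (0%). Of the members, 24 had a ratio below 0 (64.9%, against 48.6% of all named genes) and 13 had a ratio above 0 (35.1%, against 51.4%). The median ratio was -0.08 over the members and 0.0028 over all named genes. It was -0.10, -0.02, 0.02 and -0.13 in pairs 1 to 4, so that pair 3 lay on the other side of 0, and it was -0.03 without pair 1. Counted by probe, 40 of the 58 tested probes had ratios below 0. Probes of a gene are not independent, and the share below 0 over all tested probes was not counted.

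At an unadjusted p under 0.05 there were 8 members with lower values in vitrified pools (21.6%, against 4.92% of all named genes) and 2 with higher values (5.41%, against 4.61%), so that 10 members (27.0%, against 9.53%) were past it in either direction. The 8 genes were MCM6, MCM3, GMNN, DCK, RRM1, BUB1B, AURKB and BUB1, and the 2 were RRM2 and CCND3. The same 8 genes were below 0 in all 4 pairs (7.45% of all named genes were). Ratios above 0 in all 4 pairs were found for 3 members (8.11%, against 8.67%): RRM2, CCND3 and CDK4. A ratio of -0.2 or lower was seen for 7 members (18.9%, against 7.35%), and one of 0.2 or higher for RRM2 only (2.70%, against 7.17%). Pools whose levels did not overlap between groups occurred for 3 members, all lower in vitrified pools (8.11%, against 1.21%), namely RRM1, GMNN and MCM3.

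Leaving out one pair at a time gave 6 to 8 lower members at an unadjusted p under 0.05, against 4.21% to 6.22% of all named genes. BUB1B, MCM6 and RRM1 were among them each time. The members below 0 numbered 20 to 25 of 37, against 47.7% to 49.5% of all named genes. The higher members were 2 without pair 1 (4.55% of all named genes), 0 without pair 2 (4.37%), 0 without pair 3 (5.41%) and 1 without pair 4 (4.38%), all near those shares. A ratio of -0.2 or lower was seen for 7 members without pair 1 (8.53% of all named genes) and 9 without pair 2 (9.33%). It was seen for 11 members without pair 3 (10.3%) and 7 without pair 4 (7.69%). The members are brighter than most genes on the array, with a median mean log2 intensity of 10.3 against 7.80. Among probes above background in both channels of all 8 arrays, 8 of 35 members were lower at an unadjusted p under 0.05 (22.9%, against 5.2%) and 24 were below 0 (68.6%, against 47.9%). This filter does not match genes by brightness, so the part of brightness in these shares was not tested.

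The way the arrays were taken as replicates decided whether any member was called. With the 8 arrays as independent samples, 2 members passed at an adjusted p under 0.05 in limma, BUB1B and MCM6 (3.17% of all named genes passed). This setting counts each pool pair as 2 samples, so its p-values are too small if neighbouring areas share pools. With the labelled replicate number as a block, 4 members passed, BUB1B, DCK, MCM6 and RRM1 (4.72%). That number joins arrays of one dye orientation on different slides, and the block's correlation was -0.11, so pool pairs were not accounted for here either. All members that passed were lower in vitrified pools. With the arrays of a replicate number averaged, 0 members passed.

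**Figure D1:**
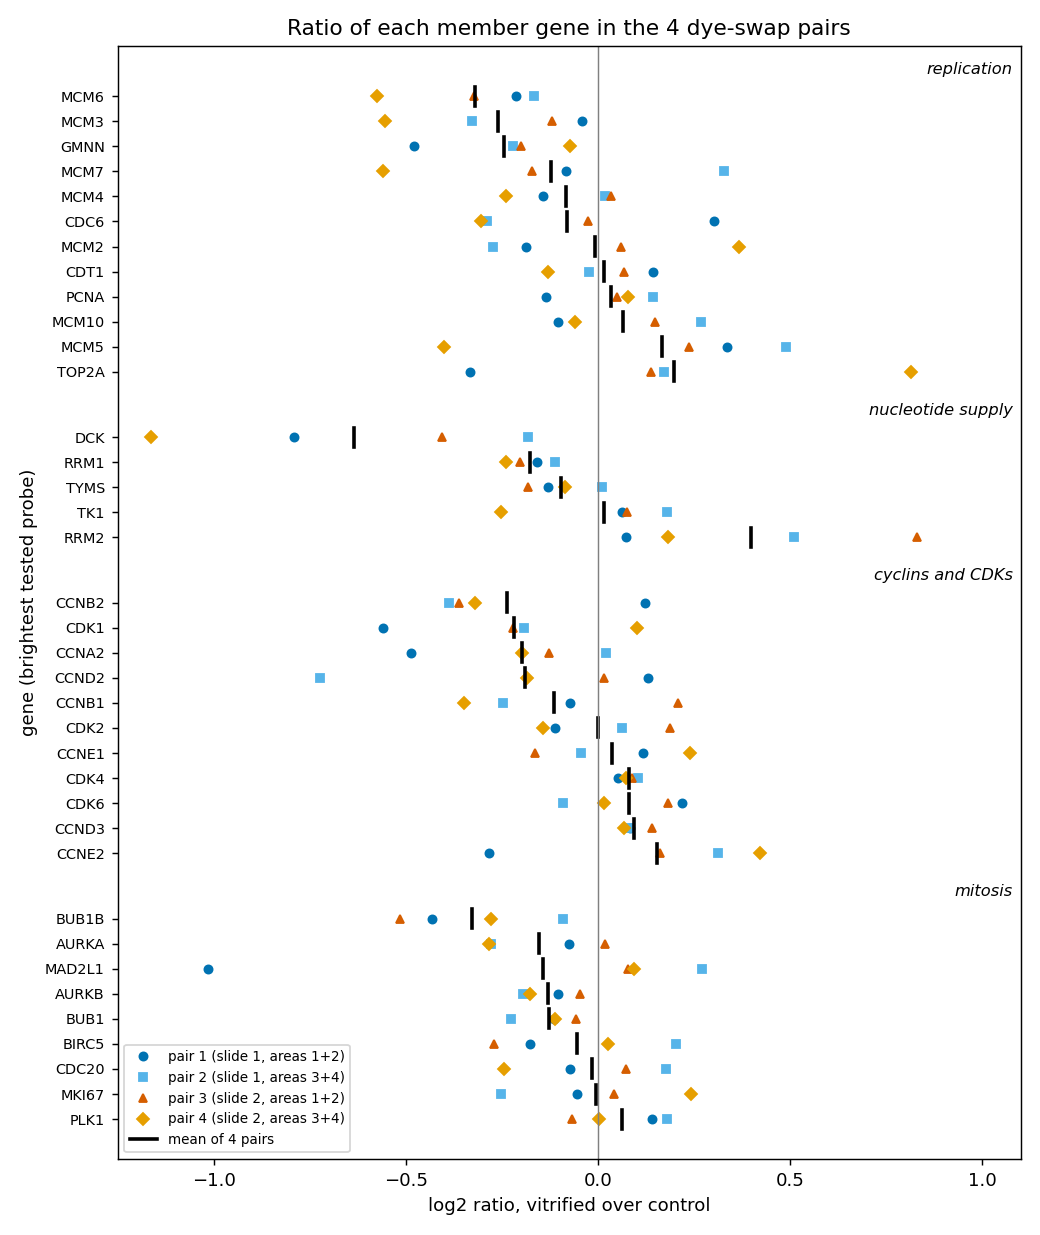
Log2 ratio of vitrified over control (horizontal axis) of the brightest tested probe of each of the 37 tested member genes (vertical axis, by role), with 1 symbol per dye-swap pair and a bar at the mean of 4 pairs. DCK has the lowest mean at -0.64 and RRM2 the highest at 0.40, and 8 of the 9 mitosis genes have means below 0.

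In the plot of all members by pair, the means of all members but DCK and RRM2 lie within 0.35 of 0. The median SD over pairs was 0.186 for the members and 0.158 for all named genes. The arrays of a dye swap, once the dye effect was removed, differed by a median of 0.086 for members and 0.080 for all named genes.

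Among the replication genes, MCM6 (EMBV3_15372), a subunit of the replicative helicase, had levels of 10.59, 10.04, 10.28 and 9.74 in the vitrified pools of pairs 1 to 4, against 10.80, 10.21, 10.60 and 10.32 in the control pools. The vitrified pool was lower in every pair, although the ranges of the groups overlapped. The ratio averaged -0.32 ± 0.18 (interval -0.53 to -0.11), all 8 arrays were below 0, and the adjusted p was 0.509 in limma. In linear terms the mean was 1.25-fold lower in vitrified pools.

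GMNN (EMBV3_09783), the inhibitor of origin loading, stood at 13.57, 13.44, 13.44 and 13.59 in vitrified pools, against 14.05, 13.66, 13.64 and 13.66 in control pools. Every vitrified pool was below every control pool. The ratio was -0.24 ± 0.17 (interval -0.44 to -0.05, adjusted p = 0.563), and it was widest in pair 1 at -0.48 and narrowest in pair 4 at -0.07. MCM3 (EMBV3_10707), another helicase subunit, was at 9.91, 9.70, 9.90 and 9.38 in vitrified pools, against 9.95, 10.03, 10.02 and 9.93 in control pools. These groups did not overlap either, but the gap in pair 1 was only -0.04. Its ratio of -0.26 ± 0.23 (adjusted p = 0.647) was -0.16 without pair 4. Both genes were below 0 on all 8 arrays.

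The other helicase subunits did not share this order. MCM4 (EMBV3_01700) had ratios of -0.14, 0.02, 0.03 and -0.24 in pairs 1 to 4, a mean of -0.08 ± 0.13 with an adjusted p of 0.862, and it was -0.03 without pair 4. MCM2 was at -0.0084 ± 0.29, MCM7 at -0.12 ± 0.36 and MCM5 at 0.17 ± 0.39, each with pairs on both sides of 0. Pair 4 was the lowest of the 4 for MCM3, MCM4, MCM5, MCM6 and MCM7, and the highest for the brightest MCM2 probe. The other MCM2 probes, EMBV3_05298 and EMBV3_27029, were dim (mean log2 intensities of 7.38 and 6.91) and averaged -0.15 and -0.04. On EMBV3_05298 pair 4 was the lowest at -0.46, and on EMBV3_27029 it was the highest at 0.06. The subunits of this hexamer had means on both sides of 0 in these pools, from -0.32 for MCM6 to 0.17 for MCM5.

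Of the loading factors, CDC6 was at -0.08 ± 0.28 and CDT1, the target of geminin, at 0.01 ± 0.12. MCM10, which helps to activate the loaded helicase, was at 0.06 ± 0.18. PCNA, the sliding clamp that holds polymerases on DNA, had 0.03 ± 0.12 on its brightest probe, and its 4 probes ranged over 0.27. Its other probes averaged -0.04, -0.12 and -0.24, so the sign of PCNA rests on which probe is read. TOP2A, the topoisomerase that untangles replicated chromosomes, averaged 0.20 ± 0.47 with pairs between -0.33 and 0.82. In all, 7 of the 12 replication genes were below 0 and their median was -0.04, with -0.12, -0.0017, 0.04 and -0.18 in pairs 1 to 4. Leaving out pair 4 brought that median to -0.0057.

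**Figure D2:**
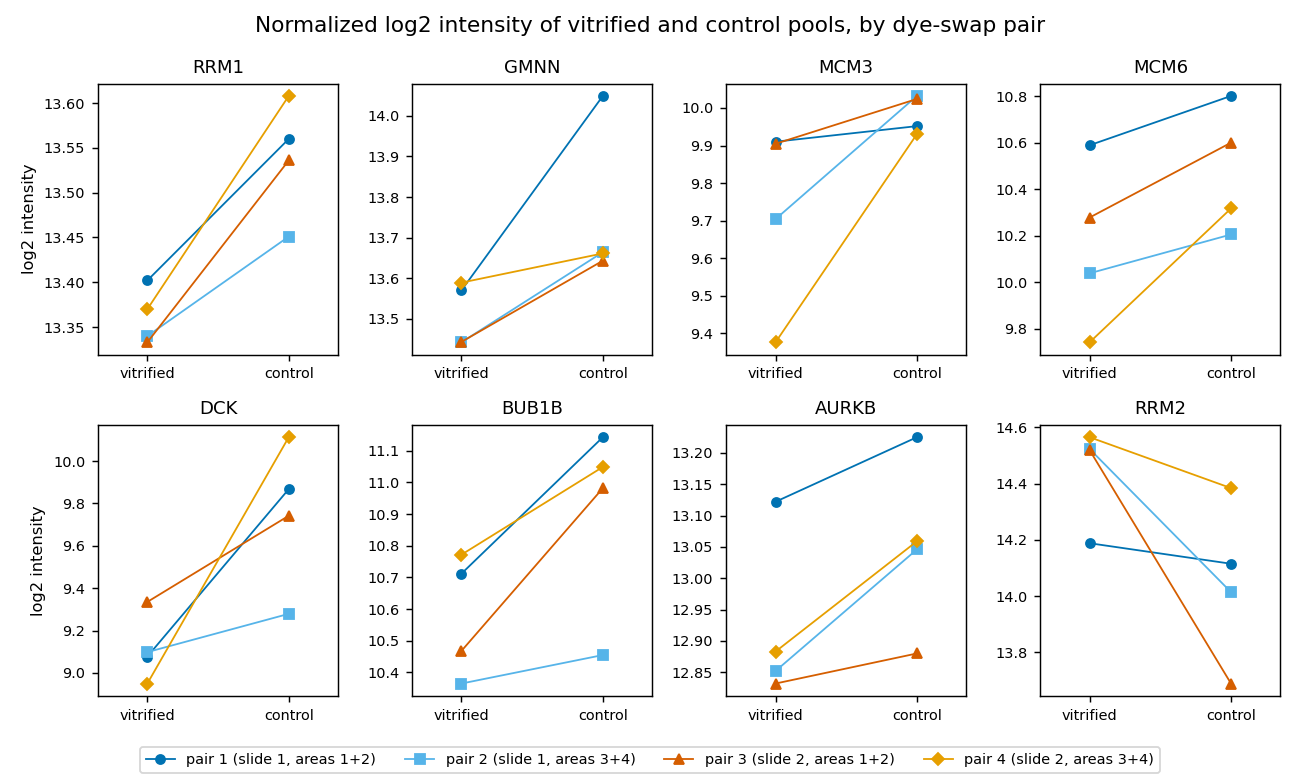
Normalised log2 intensity (vertical axis, a separate scale for each gene that does not start at 0) of vitrified pools (left) and control pools (right), with a line joining the pools of each dye-swap pair. All 4 lines of RRM1, GMNN, MCM3, MCM6, DCK, BUB1B and AURKB run lower on the vitrified side and all 4 of RRM2 run higher, while the groups are apart without overlap for RRM1, GMNN and MCM3 only.

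Nucleotide supply held the lowest and the highest mean of all members. DCK, deoxycytidine kinase, phosphorylates salvaged deoxycytidine and purine deoxynucleosides. Its brightest probe (EMBV3_21774) was at 9.08, 9.10, 9.34 and 8.95 in vitrified pools, against 9.87, 9.28, 9.74 and 10.11 in control pools. The groups overlapped slightly, since the vitrified pool of pair 3 exceeded the control pool of pair 2. The ratio was -0.64 ± 0.43 (interval -1.10 to -0.17), or 1.55-fold lower, with all 8 arrays below 0 and an adjusted p of 0.532. Pair 4 gave -1.16 and pair 2 gave -0.18.

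The other DCK probes had smaller differences of the same sign. EMBV3_10190 had ratios of -0.27, -0.46, -0.24 and -0.23, a mean of -0.30 ± 0.11 with an adjusted p of 0.453, and was below 0 on all 8 arrays. EMBV3_02148 had -0.48, -0.46, 0.01 and -0.50, a mean of -0.36 ± 0.24 with an adjusted p of 0.547, and was below 0 on 7 arrays. The order of the pairs differed between probes: pair 2 was the nearest to 0 on the brightest probe and the lowest on EMBV3_10190. EMBV3_10190 and EMBV3_02148 were dim, with mean log2 intensities of 7.37 and 7.17, where the limit for above background lay between 6.52 and 7.01 over arrays and channels.

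RRM1 (EMBV3_07922), the large subunit of ribonucleotide reductase, stood at 13.40, 13.34, 13.33 and 13.37 in vitrified pools, against 13.56, 13.45, 13.54 and 13.61 in control pools. All vitrified pools were below all control pools, and the pairs agreed closely. The ratio was -0.18 ± 0.06 (interval -0.28 to -0.08, adjusted p = 0.459), a 1.13-fold lower level, with all 8 arrays below 0.

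RRM2 encodes the small subunit of the same enzyme, which is made in the phase of DNA synthesis. Its brightest probe (EMBV3_11172) was at 14.19, 14.52, 14.52 and 14.56 in vitrified pools, against 14.12, 14.01, 13.69 and 14.38 in control pools. Each vitrified pool exceeded its own control, by 0.07, 0.51, 0.83 and 0.18, while the ranges of the groups overlapped. The ratio of 0.40 ± 0.34 (interval 0.03 to 0.77, adjusted p = 0.629) was 1.32-fold higher, 6 of 8 arrays were above 0, and without pair 3 it was 0.25.

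The remaining RRM2 probes had means next to 0. EMBV3_38800 averaged -0.02 ± 0.30. EMBV3_27601 had the lowest mean of the RRM2 probes, -0.05 ± 0.03, but was dim, with a mean log2 intensity of 6.96. EMBV3_35278 averaged -0.03 ± 0.61, with -0.76, 0.28, 0.63 and -0.28 in pairs 1 to 4. On the 3 brighter probes pair 3 was the highest of the pairs. The spread of 0.45 between RRM2 probes and of 0.33 between DCK probes compares with a median of 0.13 over the 12 members with several tested probes and of 0.12 over 3254 named genes with several. The value of RRM2 thus rests on which probe is read, and the transcript regions that the probes cover were not analysed here.

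**Figure D3:**
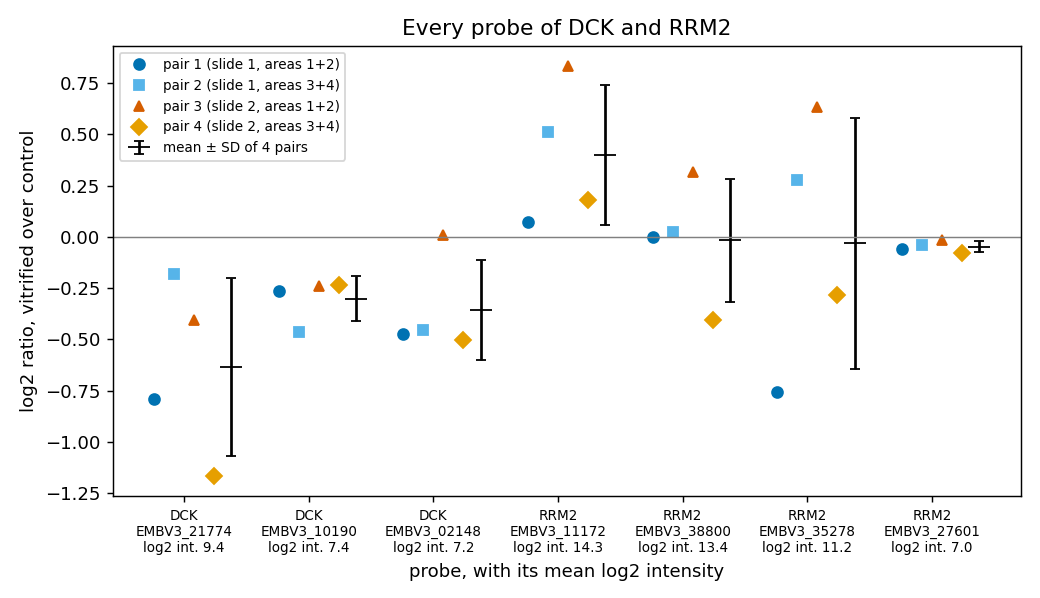
Log2 ratio of vitrified over control (vertical axis) for every probe of DCK and RRM2 (horizontal axis, with the mean log2 intensity of each probe), 1 symbol per dye-swap pair and a black mean ± SD of 4 pairs. The 3 DCK means lie between -0.64 and -0.30, while only the brightest of the 4 RRM2 probes has a mean above 0.

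TYMS (EMBV3_37570), which makes thymidylate, was at -0.13, 0.01, -0.18 and -0.09 in pairs 1 to 4, a mean of -0.10 ± 0.08 (adjusted p = 0.726). Its other probes averaged 0.03 and -0.04. TK1 (EMBV3_15339), the cytosolic thymidine kinase of dividing cells, was at 0.06, 0.18, 0.08 and -0.25, a mean of 0.02 ± 0.19 (adjusted p = 0.988). With 3 of 5 genes below 0, the median of the nucleotide supply genes was -0.10, and by pair it was -0.13, 0.01, -0.18 and -0.24.

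Among cyclins and their kinases, small higher values stood beside larger but less even lower ones. CCND3 (EMBV3_07018), a D-type cyclin of the G1 phase, had ratios of 0.08, 0.09, 0.14 and 0.07, a mean of 0.09 ± 0.03 (adjusted p = 0.617). Of the single arrays 5 of 8 were above 0, and those below 0 all had the vitrified pool in Cy5. The dye effect of this probe, -0.13 in log2 Cy5 over Cy3, was larger than its ratio and cancels within a pair. CDK4 (EMBV3_17332), a kinase partner of D-type cyclins, had 0.05, 0.11, 0.09 and 0.07, a mean of 0.08 ± 0.02 (adjusted p = 0.661). The CDK4 ratio was -0.08 in the authors' deposited table. For both genes the ranges of vitrified and control pools overlapped.

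CCNB2 (EMBV3_02693), a mitotic cyclin, had 0.12, -0.39, -0.36 and -0.32 in pairs 1 to 4. Pair 1 stood apart, and the mean of -0.24 ± 0.24 (adjusted p = 0.691) was -0.36 without it. CCNA2 (EMBV3_32164), the cyclin of DNA synthesis and G2, had -0.49, 0.02, -0.13 and -0.20, a mean of -0.20 ± 0.21 (adjusted p = 0.727). Here pair 1 was the lowest, and the mean without it was -0.10.

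CDK1, the kinase that drives entry into mitosis, was at -0.22 ± 0.27, its partner CCNB1 at -0.12 ± 0.24 and CCND2 at -0.19 ± 0.38. CCNE1 and CCNE2, cyclins of the entry into DNA synthesis, were at 0.04 ± 0.18 and 0.15 ± 0.31, CDK2, their kinase, at -0.00071 ± 0.16 and CDK6 at 0.08 ± 0.14. All of these had pairs on both sides of 0. CCND1 was not tested: it was above background in 0 vitrified and 3 control channels of 8. Of the 11 tested genes 6 were below 0, and their median was -0.00071, with medians by pair between -0.04 and 0.09.

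The genes of mitosis had the lowest median of the role groups, -0.13, and 8 of 9 were below 0. By pair the median was -0.10, -0.09, -0.05 and -0.11, but leaving out pair 1 brought the median of the gene means to -0.01. BUB1B (EMBV3_28797), the checkpoint protein BubR1, was at 10.71, 10.37, 10.47 and 10.77 in vitrified pools, against 11.14, 10.46, 10.98 and 11.05 in control pools. The vitrified pool was lower in each pair, although the groups overlapped. Its ratio was -0.33 ± 0.19 (interval -0.54 to -0.12, adjusted p = 0.505), a 1.26-fold lower level.

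AURKB (EMBV3_40039), the kinase of the chromosomal passenger complex, had -0.10, -0.19, -0.05 and -0.18, a mean of -0.13 ± 0.07 (adjusted p = 0.565). Its other probes averaged -0.07 and 0.0090, the last on the other side of 0. BUB1 (EMBV3_38370), a checkpoint kinase at the kinetochore, had -0.11, -0.23, -0.06 and -0.11, a mean of -0.13 ± 0.07 (adjusted p = 0.582). AURKA (EMBV3_36906), the kinase of the spindle poles, had -0.07, -0.28, 0.02 and -0.28, a mean of -0.15 ± 0.15 (adjusted p = 0.702). These kinases were each lowest in pair 2 or pair 4 and nearest to 0 in pair 3.

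The checkpoint protein MAD2L1 was at -1.02 in pair 1 and at 0.27, 0.08 and 0.09 in pairs 2 to 4, a mean of -0.14 ± 0.59 that rested on a single pair. CDC20, the activator of the anaphase-promoting complex, was at -0.02 ± 0.18 and MKI67, the Ki-67 proliferation antigen, at -0.0051 ± 0.20. BIRC5 (survivin) was at -0.05 ± 0.21 on its brightest probe and -0.18 on the other. PLK1, a kinase of mitotic entry and exit, was the only gene of the group above 0, at 0.06 ± 0.12 on its brightest probe. That probe was dim, with a mean log2 intensity of 7.11, and the other tested PLK1 probe averaged -0.03. Pairs of all of these lay on both sides of 0 on the brightest probe.

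**Figure D4:**
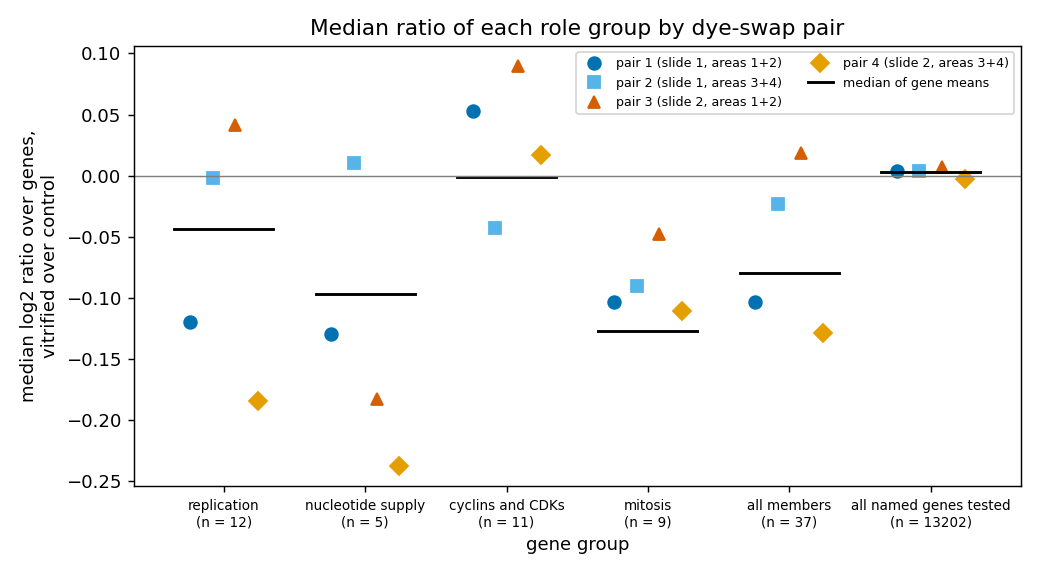
Median log2 ratio of vitrified over control (vertical axis) over the genes of each role group, of all members and of all named genes tested (horizontal axis), with 1 symbol per dye-swap pair and a bar at the median of the gene means. The mitosis group is below 0 in all 4 pairs with a median of -0.13, while all named genes lie at 0.0028.

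The plot of group medians sets these groups side by side. Mitosis was the only role group whose median was below 0 in all 4 pairs, and pair 3 was the highest pair of every role group other than nucleotide supply. Whether one role group differed from another was not tested.

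The wider pathway was read from lists of genes outside the members, chosen by function with earlier results of these data known. No gene of these lists had an adjusted p under 0.05 in limma. Over all named genes, 4.92% were lower and 4.61% higher at an unadjusted p under 0.05, and 48.6% were below 0. Of 46 further replication factors 35 were tested, of which 24 were below 0 (68.6%, median -0.05), with 2 lower (5.71%) and 1 higher (2.86%) at an unadjusted p under 0.05. GINS1, a subunit of the helicase's GINS partner complex, had the smallest p of the list at -0.29 ± 0.20 (adjusted p = 0.548), and its other probes averaged -0.27 and -0.28. TIMELESS, a fork protection protein, was at -0.19 ± 0.15 (adjusted p = 0.628).

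Of 47 further nucleotide supply genes 38 were tested, with 21 below 0 (55.3%) and a median of -0.03, and 2 were lower (5.26%) and 1 higher (2.63%) at an unadjusted p under 0.05. CMPK1, a kinase that converts pyrimidine monophosphates to diphosphates, was at 0.37, 0.73, 0.28 and 0.83 in pairs 1 to 4, a mean of 0.55 ± 0.27 (adjusted p = 0.458). Its other probes averaged 0.08 and 0.25. ADA, adenosine deaminase, was at -0.16 ± 0.10 (adjusted p = 0.562).

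Among 51 other regulators of cyclin-dependent kinases 44 were tested, of which 31 were below 0 (70.5%, median -0.04), with 4 lower (9.09%) and 2 higher (4.55%) at an unadjusted p under 0.05. CCNC, a cyclin of the Mediator kinase, was at -0.34 ± 0.11 (adjusted p = 0.443), while its other probes averaged 0.05 and -0.05. CKS1B, a small subunit that binds cyclin-dependent kinases, was at -0.15 ± 0.05 (adjusted p = 0.478). Of 72 other mitosis genes 63 were tested, with 36 below 0 (57.1%) and a median of -0.02, and 9 were lower (14.3%) and 3 higher (4.76%) at an unadjusted p under 0.05. NDC80, which ties kinetochores to microtubules, was at -0.30 ± 0.09 (adjusted p = 0.443), and the kinetochore protein ZWINT was at 0.22 ± 0.06 (adjusted p = 0.451).

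**Figure D5:**
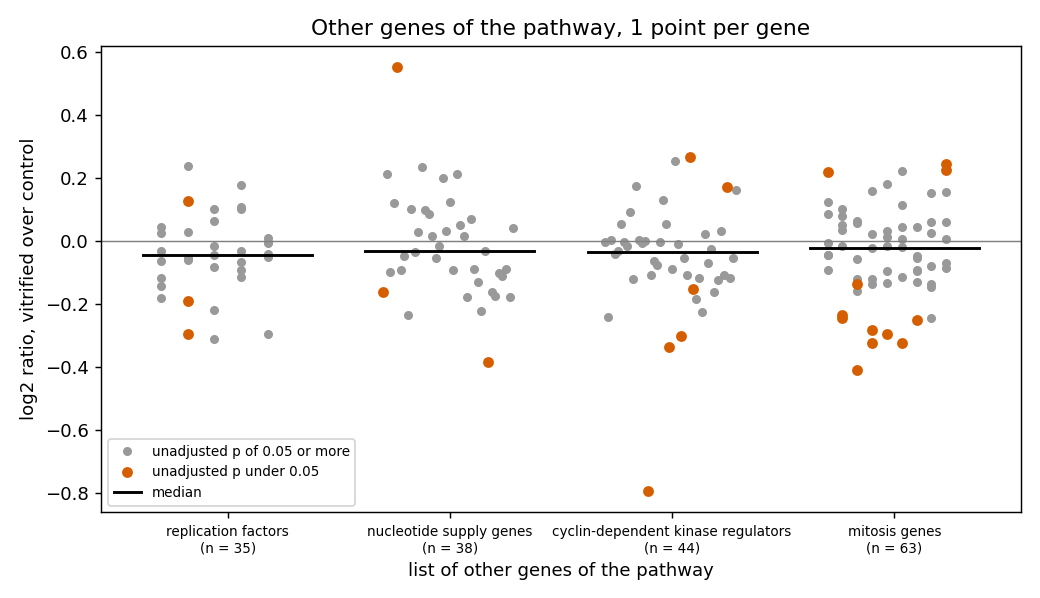
Log2 ratio of vitrified over control (vertical axis) of each tested gene outside the members in 4 lists of the wider pathway (horizontal axis), with genes at an unadjusted p under 0.05 in colour and a bar at the list median. All 4 medians lie between -0.05 and -0.02, and 0 of the genes had an adjusted p under 0.05.

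The plot of the wider pathway shows points on both sides of 0 in each list. The list medians compare with 0.0028 for all named genes. The value lowest on the plot, -0.79 ± 0.57, belongs to CCNA1, a cyclin best known from male germ cells, which is named here after its value was seen.

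Markers of the cell lineages had ratios away from 0 as well. Trophectoderm genes had a median of 0.25, with 9 of 10 tested genes above 0, and by pair the median was 0.21, 0.38, -0.05 and 0.46. Inner cell mass genes had a median of -0.25, with 4 of 5 tested genes below 0, and by pair it was -0.11, -0.25, 0.03 and -0.42. Pair 3 was thus the pair nearest to 0 for trophectoderm and inner cell mass genes, though not for the primitive endoderm genes below. It was also the pair in which the members' median was above 0. The part of the lineage markers in the members' ratios was not tested.

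Of the single lineage markers, IFNT, the trophoblast interferon, was at 0.80 ± 0.51, NANOG, a pluripotency factor, at -0.48 ± 0.24 and POU5F1 at 0.08 ± 0.09. Primitive endoderm genes had a median of -0.20 over 4 tested genes. By pair it was -0.11, -0.15, -0.68 and -0.13, so that pair 3 was the furthest from 0. Markers of cells that could have been carried along had medians near 0, with 0.0085 for 7 cumulus genes, -0.01 for 5 oocyte genes and -0.03 for 6 sperm genes. Of the 7 cumulus genes 3 were above background in both channels of all arrays: LUM, INHBA and CYP19A1. LUM was at -0.61 ± 1.3, with 0.80 in pair 2 and -2.20 in pair 4. INHBA was at -0.19 ± 0.64 and CYP19A1 at 0.05 ± 0.29. The sperm genes ran from -0.19 for TNP1 to 0.40 for SPAM1, both dim, with 3 above 0 and 3 below. Whether carried-over cells differed between pools was not tested. No marker had an adjusted p under 0.05 in limma.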

How the data were processed

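The deposited scanner files hold, per the file headers, mean spot and local background intensity in Cy5 and Cy3, neither corrected nor normalised. The authors' deposited table holds log2 values; for its normalisation the sources used here name no method. Set against the ratios below (r = 0.774 to 0.819, slopes 0.934 to 0.979 across probes), it was read as log2 vitrified over control, with column medians from -0.0102 to 0.0104, and served as an alternative.

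Spots whose local background exceeded 10 times the array's median (88 to 128 per array, 0 of them of members) were left out, a choice made after seeing the data. Intensities were then corrected with normexp (offset 50) and normalised by loess within arrays (limma 3.58.1, R 4.3.3), with control spots at weight 0. Pool levels were also scaled between arrays (Aquantile). A probe was tested when above the median plus 2 scaled MAD of 153 negative controls on at least 4 of 8 arrays in either group. Symbols came from the platform annotation (21790 probes with 1 symbol, 0 with several, 22004 with none), which can be old. Of the members, 37 of 38 symbols, all but MAD2L1, were found in the RefSeq gene table.

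Each dye-swap pair was averaged with the sign turned, and the 4 pair means were tested against 0 with lmFit and eBayes, adjusted by Benjamini-Hochberg over all 35206 probes. The pairing follows from the series' dye-swap design and from the data, not from the labelled replicate numbers, which join arrays of one dye orientation on different slides. Deviations of the Cy5 over Cy3 ratios correlated at -0.80 on average between neighbouring areas, as the same pools in swapped dyes would give. Other arrays of opposite dyes were at 0.26. Arrays of a shared number were at -0.26 and other arrays of one dye orientation at -0.37. Deviations were taken from the mean of each dye orientation, which by itself pulls correlations within an orientation below 0.

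The 38 members and all gene lists were chosen with earlier results of these data known. Named were the nucleotide supply genes, the 4 genes with the smallest p of each other role group and the 2 with the smallest p of each further list; other members are given by value. The fits were tested on simulated data. Alternatives changed how arrays form replicates, slide, background correction, normalisation, source of values, filters, probe choice, and the pairs used.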

Additional observations from a re-analysis of the deposited data

Results flagged for a closer look

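Among 63 groups of 4 pair ratios, made from the tested member probes and the group medians, 5 held a value far from the other 3 by Dixon's criterion, where chance gives about 1 in 20, or 3.15. MAD2L1 (EMBV3_00965), a spindle checkpoint gene, was at -1.02 in pair 1, while the other pairs lay between 0.08 and 0.27. CCNB2 (EMBV3_02693), a mitotic cyclin, was at 0.12 in pair 1, with the other pairs between -0.39 and -0.32. A dim probe of DCK (EMBV3_02148) was at 0.0096 in pair 3, with the others between -0.50 and -0.46. Another dim probe of DCK (EMBV3_10190) was at -0.46 in pair 2, with the others between -0.27 and -0.23. A dimmer probe of AURKB (EMBV3_23262) was at 0.15 in pair 3, with the others between -0.16 and -0.13.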

How the results depend on the processing

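With 4 pairs of pools only large and even differences could pass the test, and dim probes (CCND1, 1 PLK1 probe) gave no test. How arrays are taken as replicates mattered most. With 8 arrays as independent samples, which counts each pool pair as 2 samples, 801 probes and 2 members were called (BUB1B and MCM6, both lower, against 3.17% of named genes). With the labelled replicate number as a block, whose correlation was -0.11, 1249 probes and 4 members were called (BUB1B, DCK, MCM6 and RRM1, all lower, against 4.72%). Averaging the arrays of a number called 0 probes, the smallest adjusted p being 0.0861, with 5354 at an unadjusted p under 0.05. With slide as a block 0 probes were called and 2620 had an unadjusted p under 0.05. All other alternatives called 0 probes and 0 members. The mitosis median was -0.180 with median centring and -0.0857 on slide 2 alone, and the cyclin median was -0.0836 in the authors' deposited table and -0.0580 with probes above background throughout; the cause was not tested. TK1 turned to -0.0135 with median centring, and CDK4 turned to -0.0836 in the authors' deposited table. Leaving out one pair at a time gave medians of -0.0716 to -0.0280 for all members, -0.0641 to -0.0057 for replication, -0.132 to -0.0680 for nucleotide supply, -0.0635 to 0.0105 for cyclins and -0.150 to -0.0136 for mitosis, 0 to 0 called probes and members, and -0.0380 to 0.106 for TK1. Of 306 values of named genes under the alternatives, 296 kept their sign and their side of the threshold, 6 passed it and 4 changed sign.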
